A study of Mus musculus with 15 samples.

Results

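The first steps of T cell receptor signalling depend on a small set of proteins, and 9 of the genes that encode them were examined here in the chromatin of EL4 cells, out of 21631 protein-coding genes. The 9 genes are Lck, Fyn, Ptprc, Cd28, Zap70, Lat, Lcp2, Plcg1 and Vav1. The rule lists them by name, and the list was drawn up with earlier results of these data known. Each gene was given a window made of its RefSeq span on GRCm38.p6 with 10 kb added on each side, and all intervals in that window were collected from every list. EL4 is a mouse cell line from a T lymphocyte lymphoma of the strain C57BL/6N, and all libraries came from this 1 line, grown in RPMI medium with 10% serum. The labels name no treatment or genetic change. Chromatin immunoprecipitation with sequencing (ChIP-seq) was available for H3K4me3, H3K9ac, H3K27ac, H3K36me2 and H3K27me3, and accessible DNA was mapped by ATAC-seq, in which a transposase inserts adapters into open chromatin. Each of the 6 assays had 2 replicates, which gave 12 lists of called intervals. The input and the RNA-seq libraries were not analysed here.

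When the T cell receptor is engaged, the kinase Lck, which is bound to the CD4 and CD8 coreceptors, phosphorylates the receptor chains, and the related kinase Fyn can act beside it. The phosphatase CD45, the product of Ptprc, keeps Lck ready to act. ZAP70 docks on the phosphorylated chains and phosphorylates the adaptors LAT and SLP76, the product of Lcp2. On these adaptors, phospholipase C gamma 1 (Plcg1) releases the second messengers that raise calcium, and Vav1 activates small GTPases that act on actin, while CD28 delivers the costimulatory signal. Of the marks measured, H3K4me3 is known from active gene starts, H3K9ac and H3K27ac from active promoters and enhancers, H3K27me3 from Polycomb repression, and H3K36me2 from broad domains over genes and the space between them.

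The lists held between 17519 and 19255 intervals for ATAC-seq, between 18127 and 28279 for the ChIP-seq marks called as narrow, and between 38014 and 46015 for H3K36me2 and H3K27me3. They give positions only, so the depth behind an interval is unknown, and marks carried by some of the cells cannot be told apart from marks carried by all. The replicates were called technical in parts of the study's methods, so their spread may not include that between cultures. With 2 replicates on each side, an exact permutation test could not go below p = 0.333, and no test was run. Values are given for replicates 1 and 2, and genes were said to differ only where the ranges of their replicates did not overlap. As a check of the label, all 6 T cell markers (Cd3d, Cd3e, Cd3g, Cd5, Cd2 and Thy1) had H3K4me3 in both replicates and 0 of 6 had H3K27me3. Of 5 B cell markers, Cd79a and Pax5 also had H3K4me3, and Cd79b and Ms4a1 were among those with none. Of 4 myeloid markers, Itgam and Lyz2 had H3K4me3. H3K27me3 was found in both replicates at 2 of the 5 B cell markers and 1 of the 4 myeloid ones. Over all protein-coding genes, the shares were 57.7% for H3K4me3 and 24.3% for H3K27me3.

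The chromatin of the 9 genes carried the marks of active genes and no Polycomb mark. All 9 had at least 1 interval of H3K4me3, H3K9ac, H3K27ac and ATAC-seq in both replicates, which is the rule for a call used throughout. Among all protein-coding genes, H3K4me3 was called at 57.7%, H3K9ac at 56.3%, H3K27ac at 57.6% and ATAC-seq at 53.7%. H3K36me2 was called at 8 of the 9, against 53.8% of all genes, and the gene without it was Plcg1. H3K27me3 was called at 0 of the 9, with no interval in either replicate, against 24.3% of all genes. The whole pattern, with all 5 other assays in both replicates and no H3K27me3 in either, was found at 8 of the 9 genes and at 36.2% of all genes.

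**Figure D1:**
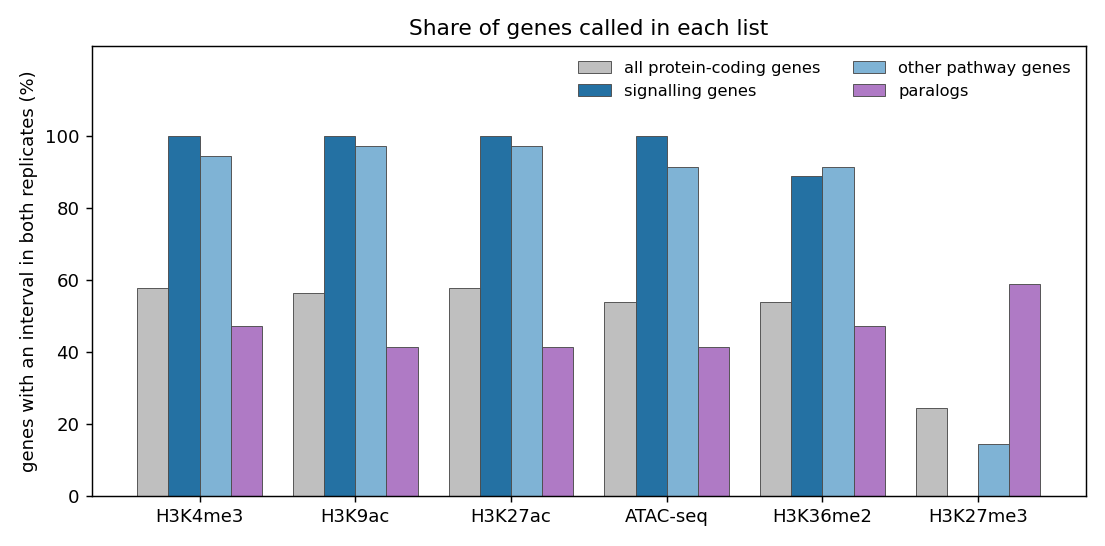
Percent of genes with at least 1 interval in both replicates, for each assay, in all 21631 protein-coding genes, the 9 signalling genes, 35 other genes of the pathway and 17 paralogs of the 9 genes. The 9 genes reach 100% for 4 assays and 88.9% for H3K36me2, and have no bar for H3K27me3, where the paralogs reach 58.8%.

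The median cover of the 9 windows lay above that of all genes for each of these marks. H3K27ac covered a median of 16.6% of the window over the 9 genes, against 1.56% over all genes. For H3K4me3 the medians were 8.58% and 1.81%, for H3K9ac they were 8.57% and 1.35%, and for ATAC-seq they were 1.46% and 0.519%. H3K36me2 covered a median of 71.4% of the window over the 9 genes and 10.5% over all genes. These medians depend on the window. Within 10 kb on either side of the start, which 8 of the 9 genes have in the table, they were 24.8% and 3.08% for H3K4me3, 22.2% and 1.84% for H3K9ac, 3.80% and 0.50% for ATAC-seq, 23.4% and 2.43% for H3K27ac and 51.9% and 5.50% for H3K36me2, over the 8 and over all genes with a listed start, the latter computed after the data had been seen. The windows of the 9 genes were 25.9 to 216 kb long with a median of 64.5 kb, and those of all genes had a median of 37.3 kb.

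**Figure D2:**
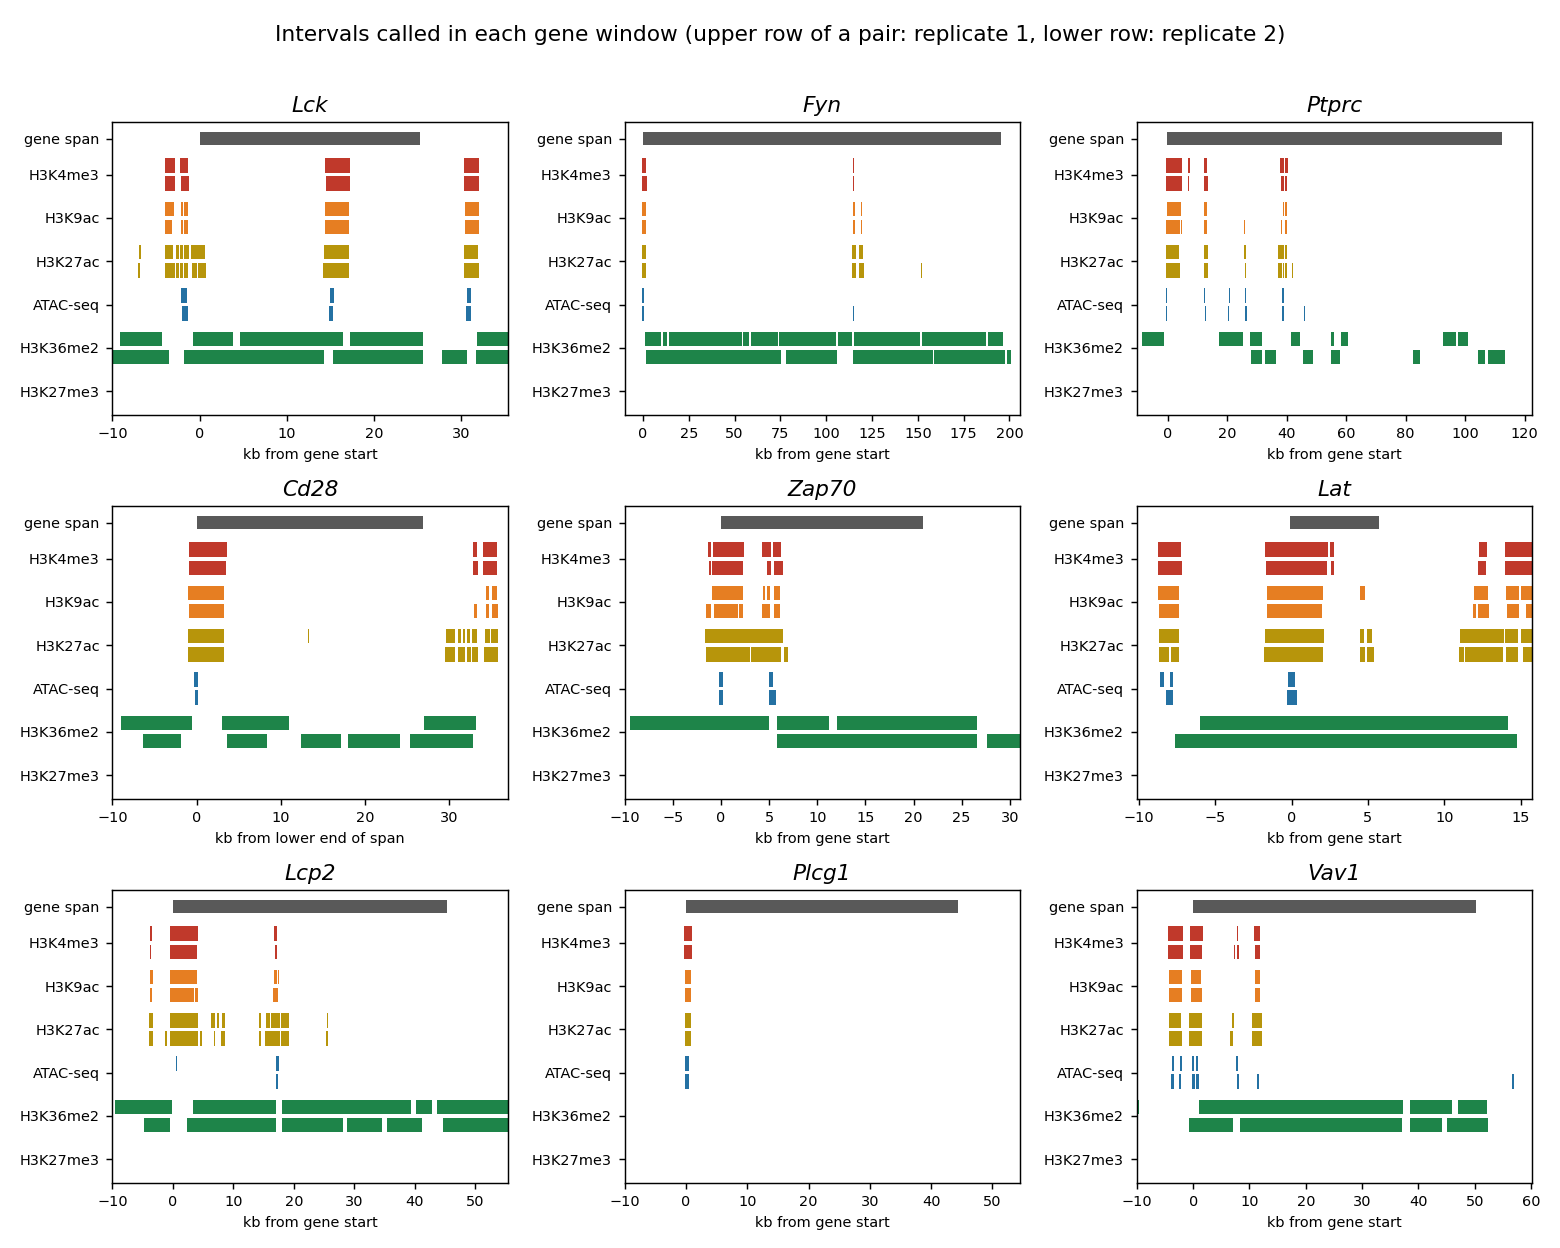
Intervals of each assay in the windows of the 9 genes, drawn from the gene start in the direction of transcription (x axis, kb; for Cd28 from the lower end of its span), with replicate 1 above replicate 2 and the gene span in grey. Plcg1 has 1 interval of each active assay at its start and none of H3K36me2. In the other 8 windows H3K36me2 lies over at least part of the gene, at Ptprc only in scattered blocks. No window has H3K27me3.

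Lck (gene ID 16818, chr4:129548344-129573641, minus strand) encodes the Src family kinase that starts the cascade. RefSeq lists an outer start at 129573641 and an inner start at 129558372, the latter inside the span, and the lists set these starts apart. At the inner start, H3K4me3, H3K9ac and H3K27ac intervals of both replicates covered all 250 bases before the start, and an ATAC-seq site lay across it, from 14.8 to 15.4 kb after the outer start. H3K4me3 there was 2876 bp wide in replicate 1 and 2772 bp in replicate 2, the widest in the window. At the outer start, by contrast, no H3K4me3, H3K9ac or ATAC-seq interval was called in either replicate, while H3K27ac covered 250 and 243 of the 250 bases and H3K36me2 covered all of them in both. The nearest ATAC-seq site before the outer start lay at 1.38 to 2.10 kb from it and touched H3K4me3 in both replicates.

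The 250 bases before each Lck start, as RefSeq gives them for GRCm38.p6, are shown because the chromatin at the starts differed. They lie at chr4:129573642-129573891 and chr4:129558373-129558622, both on the minus strand, and capitals mark matches, on either strand, to one of 7 short motifs. ETS factors are known to bind sites such as CAGGAAG. A second ETS form searched for was CCGGAAG. RUNX factors bind sites with the core TGTGGT. The E-boxes searched for were CAGGTG, which binds E proteins such as E2A, and the form CAGCTG, bound by the same proteins. The core promoter elements were the TATA box, searched for as TATAAA, and the GC box, searched for as GGGCGG.
Lck outer start: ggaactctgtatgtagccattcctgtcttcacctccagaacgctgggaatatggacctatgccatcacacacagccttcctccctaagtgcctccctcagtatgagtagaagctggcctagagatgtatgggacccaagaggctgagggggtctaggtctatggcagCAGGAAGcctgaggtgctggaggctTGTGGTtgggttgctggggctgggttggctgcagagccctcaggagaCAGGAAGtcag
Lck inner start: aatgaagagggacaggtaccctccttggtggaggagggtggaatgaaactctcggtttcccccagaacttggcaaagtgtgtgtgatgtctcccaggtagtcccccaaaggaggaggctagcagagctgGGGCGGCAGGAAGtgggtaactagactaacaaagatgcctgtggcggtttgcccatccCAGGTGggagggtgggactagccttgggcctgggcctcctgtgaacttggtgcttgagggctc
The outer promoter held CAGGAAG at 2 places and TGTGGT at 1, and the inner promoter held GGGCGG directly followed by CAGGAAG, and CAGGTG further on. Their GC contents were 56.4% and 58.0%, near the median of 55.6% over 21045 listed promoters, with 1 and 3 CpG dinucleotides against a median of 10.0.

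H3K36me2 covered 73.0% of the Lck window in replicate 1 and 86.7% in replicate 2 and lay over both starts in both replicates. H3K27ac was called as 8 sites shared by both replicates, where a site is the union of overlapping intervals. Of these, 3 had neither H3K4me3 nor H3K9ac, among them the site across the outer start. The protein-coding genes Hdac1, which encodes a histone deacetylase, and Fam167b lie in the window as well. An active site at 30.3 to 32.1 kb after the outer start lies across the upper end of the Hdac1 span by position. H3K4me3 sites 1.22 to 2.24 kb and 2.84 to 4.01 kb before the outer start lie within 1 kb of Fam167b or across it. The sites at Hdac1 and Fam167b cannot be assigned to Lck.

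Fyn (gene ID 14360, chr10:39369743-39565381, plus strand) encodes the second Src family kinase of the set and is the longest of the 9 genes, with a span of 196 kb. Its start carried H3K4me3 intervals of 2470 and 2496 bp and an ATAC-seq site called in both replicates. The intervals of this ATAC-seq site together reached from 0.447 kb before to 0.498 kb after the start. H3K36me2 began 1.20 kb after the start in replicate 1 and 1.40 kb after it in replicate 2 and covered 86.4% and 86.1% of the window, the highest mean of the set (86.3% ± 0.261, SD, n = 2). A further active site lay inside the gene. H3K4me3, H3K9ac and H3K27ac intervals of both replicates were called between 114 and 116 kb after the start, with H3K27ac and H3K9ac again up to 120 kb, and ATAC-seq was called there in replicate 2 but not in replicate 1. Of this long window, H3K4me3 covered 1.54% and 1.51% below the median of all genes. The lncRNA Gm31616 ends before the Fyn start, at 39369612, inside the same H3K4me3 site.

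Ptprc (gene ID 19264, chr1:138062859-138175756, minus strand) encodes CD45, a receptor phosphatase. It had the widest H3K4me3 interval of the 9 genes, 5392 bp in replicate 1 and 5326 bp in replicate 2, which ran from before the start to 4.71 kb into the gene. Both listed starts, at 138175305 and 138175126, lay in it. ATAC-seq was not called on either promoter window but just before them, at 0.252 to 0.625 kb. Inside the gene, 4 more ATAC-seq sites were shared by both replicates, beginning 12.3, 20.4, 26.1 and 38.4 kb after the start. H3K27ac of both replicates touched 3 of them, and the site at 20.4 kb touched no H3K4me3, H3K9ac or H3K27ac interval. Ptprc also stood apart in H3K36me2. The mark covered 25.1% and 18.1% of the window, in blocks of a few kb that fell at different places in the replicates, so that only 3.16% of the window was covered in both. Between lists of the same replicate number, no base pair of H3K4me3, H3K9ac or H3K27ac in the window lay in H3K36me2. Over the windows of all genes, 25.1% and 21.1% of the base pairs of H3K4me3 did. Across replicate numbers, an H3K27ac interval of 224 bp, called in replicate 2 only, lay inside an H3K36me2 interval of replicate 1. The start lay in a gap of 18.4 kb without H3K36me2 in replicate 1 and of 41.0 kb in replicate 2.

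Cd28 (gene ID 12487, chr1:60746388-60773359) encodes the costimulatory receptor. The promoter table holds no entry for it, so positions are given from the lower end of its span. At this end lay an H3K4me3 interval of 4555 bp in replicate 1 and 4446 bp in replicate 2, and the only ATAC-seq site of the window, from 0.255 kb below to 0.145 kb above it. Past the other end of the span, between 29.6 and 35.8 kb, 6 H3K27ac sites of both replicates followed one another, and 4 of these had neither H3K4me3 nor H3K9ac. None of them had ATAC-seq. The lower end of the lncRNA 2310016D23Rik, at 60778461, lies among them. H3K36me2 covered 48.1% and 59.2% of the Cd28 window and 32.4% in both replicates. Of the base pairs of H3K4me3, 18.9% lay in H3K36me2 in replicate 1 and 0 in replicate 2.

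Zap70 (gene ID 22637, chr1:36761798-36782821, plus strand) encodes the kinase that docks on the receptor chains. It has 3 listed starts. The first, at 36761798, had all 4 active assays in both replicates, with H3K4me3 intervals of 3240 and 3163 bp. The second, at 36764515, had H3K27ac alone of the active assays in both replicates, and the third, at 36778984, had none of them. H3K27ac formed 1 site from 1.63 kb before to 6.46 kb after the first start, and a second ATAC-seq site lay in it at 5.02 to 5.75 kb. The replicates disagreed on H3K36me2. In replicate 1 the mark covered 83.8% of the window and lay over the start, with 88.6% of the base pairs of H3K4me3 inside it. In replicate 2 it covered 59.0%, began 5.80 kb after the start, and held 13.4% of the base pairs of H3K4me3. The protein-coding genes 4933424G06Rik and Tmem131 reach into the window.

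Lat (gene ID 16797, chr7:126363827-126369705, minus strand) encodes the membrane adaptor on which the complex assembles. It is the shortest gene of the set, with a span of 5.88 kb. Its window, the shortest at 25.9 kb, had the highest percent cover by the active marks: H3K27ac covered 39.7% and 39.1%, H3K4me3 32.0% and 31.3%, and H3K9ac 30.2% and 27.3%. This percent for H3K27ac was higher than at 99.8% of all protein-coding genes. In base pairs Lat was not the highest for 2 of the marks. H3K27ac covered 10284 and 10108 bp, against 10676 and 11021 bp at Lcp2. H3K4me3 covered 8271 and 8091 bp, against 9428 and 9017 bp at Ptprc. For H3K9ac, the 7808 and 7074 bp at Lat overlapped in range with the 6823 and 7387 bp at Ptprc. At the Lat start, H3K4me3 was 4131 and 4050 bp wide and an ATAC-seq site ran from 0.310 kb before to 0.339 kb after it. A single H3K36me2 interval in each replicate spanned the gene with its start and covered 78.1% and 86.6% of the window. Of the base pairs of H3K4me3, 62.3% and 74.2% lay in it. Part of this belongs to other genes. The protein-coding gene Spns1 lies beside the Lat start. The second ATAC-seq site, 7.74 to 8.23 kb before the start, lies in Spns1 near the upper end of its span by position. It touched H3K4me3, H3K9ac and H3K27ac in both replicates. Active sites at 11.0 to 16.4 kb after the start lie at or beside the lncRNA LOC115486475.

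Lcp2 (gene ID 16822, chr11:34046928-34092281, plus strand) encodes SLP76, the adaptor that joins LAT to its effectors. Its start carried H3K4me3 intervals of 4598 and 4555 bp, H3K9ac and H3K27ac, and yet ATAC-seq was called near it only in replicate 1, at 0.490 to 0.689 kb after it. The ATAC-seq site shared by both replicates lay inside the gene, at 17.0 to 17.5 kb, and touched H3K4me3, H3K9ac, H3K27ac and H3K36me2 in both. Lcp2 had 8 H3K27ac sites shared by both replicates, and 5 of them had neither H3K4me3 nor H3K9ac, the most of the 9 genes. All 8 touched H3K36me2 in at least 1 replicate. H3K36me2 covered 90.1% and 78.5% of the window and left a gap of 3.40 kb in replicate 1 and 2.80 kb in replicate 2 around the start. The lncRNA 4930469K13Rik overlaps the whole gene.

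The 250 bases before the Lcp2 start, chr11:34046678-34046927 on the plus strand, are shown because H3K4me3, H3K9ac and H3K27ac covered all of them in both replicates while ATAC-seq covered none. Capitals mark motif matches as above.
Lcp2: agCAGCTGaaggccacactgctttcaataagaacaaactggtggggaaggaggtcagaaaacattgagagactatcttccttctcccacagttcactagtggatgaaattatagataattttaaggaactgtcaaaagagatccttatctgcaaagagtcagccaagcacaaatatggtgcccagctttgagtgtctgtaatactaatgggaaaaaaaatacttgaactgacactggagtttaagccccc
The sequence held CAGCTG once and none of the other 6 motifs. It had no CpG and a GC content of 41.2%, lower than in all but 11.7% of the listed promoters.

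Plcg1 (gene ID 18803, chr2:160731310-160775760, plus strand) encodes the phospholipase that produces the second messengers. Its chromatin was the plainest of the set. Each of H3K4me3, H3K9ac, H3K27ac and ATAC-seq had 1 interval in each replicate, and all lay across the start. H3K4me3 was 1381 and 1406 bp wide, the narrowest of the 9 genes and 18.6% of the genes with the mark had a narrower one. The ATAC-seq site ran from 0.208 kb before to 0.547 kb after the start. No H3K36me2 interval was called in either replicate.

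The 250 bases before the Plcg1 start, chr2:160731060-160731309 on the plus strand, are shown beside those of Lcp2 since ATAC-seq was called over most of them in both replicates.
Plcg1: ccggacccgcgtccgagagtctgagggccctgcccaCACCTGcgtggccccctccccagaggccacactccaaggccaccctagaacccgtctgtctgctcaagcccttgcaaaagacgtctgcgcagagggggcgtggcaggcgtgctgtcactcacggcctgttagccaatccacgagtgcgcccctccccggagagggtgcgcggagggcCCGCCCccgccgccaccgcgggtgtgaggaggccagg
They held CACCTG, the reverse complement of CAGGTG, and CCGCCC, the reverse complement of GGGCGG. The GC content was 71.2%, higher than in 89.8% of the listed promoters, with 21 CpG dinucleotides. ATAC-seq covered 193 and 208 of the 250 bases.

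The absence of H3K36me2 at Plcg1 extended far beyond the gene. Between chr2:158860600-162946000, a stretch of 4.09 Mb, neither replicate had an H3K36me2 interval. This stretch held 10 protein-coding genes, and 5 of them had H3K4me3 in both replicates: Top1, Plcg1, Zhx3, Chd6 and Srsf6. It held 35 H3K27me3 intervals in each replicate, the nearest of them 1544 kb from the Plcg1 span in replicate 1 and 1439 kb in replicate 2. Within 2 Mb on either side of the gene, H3K36me2 covered 2.42% and 1.98%, against 19.5 to 40.9% around the other 8 genes. This region was low in the active marks too. H3K4me3 covered 0.316% and 0.311% of it, against 1.05 to 3.98% around the other 8. H3K27ac covered 0.349% and 0.362%, against 1.46 to 4.39%. The region held 12 protein-coding genes, against 25 to 110. Of 12482 protein-coding genes with H3K4me3 in both replicates, 1376 (11.0%) had no H3K36me2 interval in their window in either replicate. The part of this surrounding stretch in the value at Plcg1 was not tested.

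Vav1 (gene ID 22324, chr17:57279100-57329236, plus strand) encodes an exchange factor for small GTPases. Its window held 5 ATAC-seq intervals in replicate 1, as many as that of Ptprc, and 7 in replicate 2, the most of the 9 genes, and 5 sites were shared by both. Of these, 1 lay across the start and 1 just after it, at 0.434 to 1.03 kb. A pair of sites lay before the gene, at 3.38 to 3.92 kb and 1.89 to 2.52 kb, and the last lay at 7.65 to 8.08 kb inside it, where it touched H3K4me3 but neither H3K9ac nor H3K27ac. The widest H3K4me3 interval, 2587 and 2558 bp, was not at the start but covered the pair of sites before it. No other gene of the RefSeq table lies in the window. H3K36me2 covered 69.7% and 70.4% of the window, and lay over the start in replicate 2 but not in replicate 1.

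The 9 genes formed an order in H3K36me2 cover, and the lower part of this order was separated by more than the spread between replicates. By mean cover, the order was Fyn, Lcp2, Lat, Lck, Zap70, Vav1, Cd28, Ptprc and Plcg1. From Fyn to Vav1, the ranges of neighbours overlapped, so that these 6 genes could not be ranked step by step. The range of Vav1, 69.7 to 70.4%, did not overlap that of Cd28, 48.1 to 59.2%, which did not overlap that of Ptprc, 18.1 to 25.1%. The wide range of Zap70, 59.0 to 83.8%, met that of Cd28. Plcg1 was at 0 in both replicates. Zap70 varied most, with a mean of 71.4% ± 17.5 (SD, n = 2). Ptprc and Plcg1 kept the lowest positions in all 8 alternatives tried, but the places above them did not hold. Fyn came first in only 2 of the 8, and within 10 kb of the start it had a cover of 43.5% and stood just above Ptprc. For base pairs covered in either replicate, Cd28 at 75.0% stood above Vav1 at 74.3%, and in replicate 2 alone Cd28 at 59.2% stood just above Zap70 at 59.0%.

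**Figure D3:**
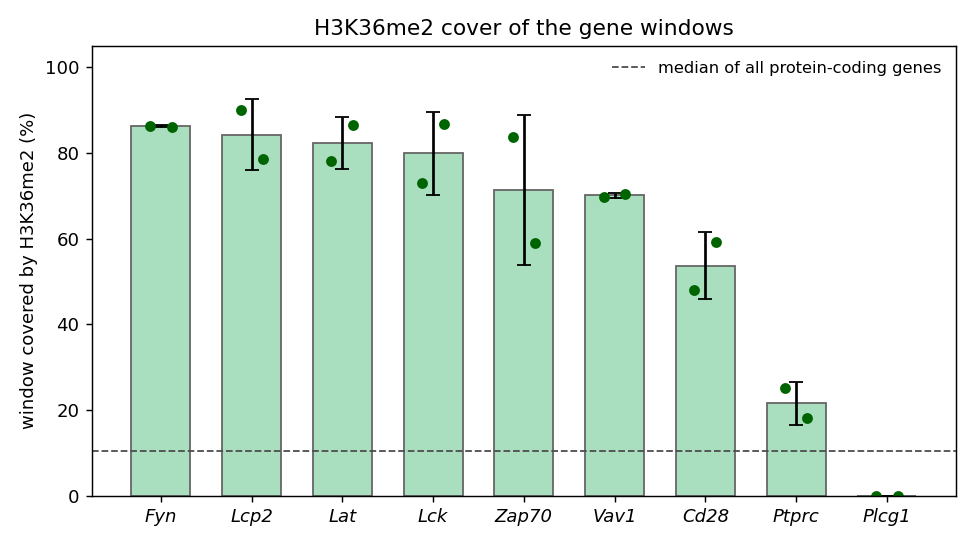
Percent of each gene window covered by H3K36me2 intervals (bars, mean; error bars, SD, n = 2; points, replicates), with the median of all protein-coding genes, 10.5%, as a dashed line. Fyn to Vav1 overlap with their neighbours, Cd28 and Ptprc follow below, and Plcg1 is at 0.

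H3K4me3 width gave a different order. Ptprc, second lowest in H3K36me2, had the widest interval (5359 bp ± 46.7, SD, n = 2), followed by Lcp2, Cd28, Lat, Zap70, Lck, Vav1, Fyn and Plcg1 (1394 bp ± 17.7, SD, n = 2). Only the ranges of Lcp2 and Cd28 met, at 4555 bp, and all other neighbours in this order were separated. The median over the 9 genes was 3202 bp, against 1990 bp over the genes called for H3K4me3. Of the 9, 8 were wider than that median, and Ptprc was wider than 98.7% of those genes. The widest interval was taken from the whole window and need not lie at the start. Windows of the 9 genes were longer, with a median of 64.5 kb against 37.3 kb over all protein-coding genes. The part of window length in this difference was not tested.

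**Figure D4:**
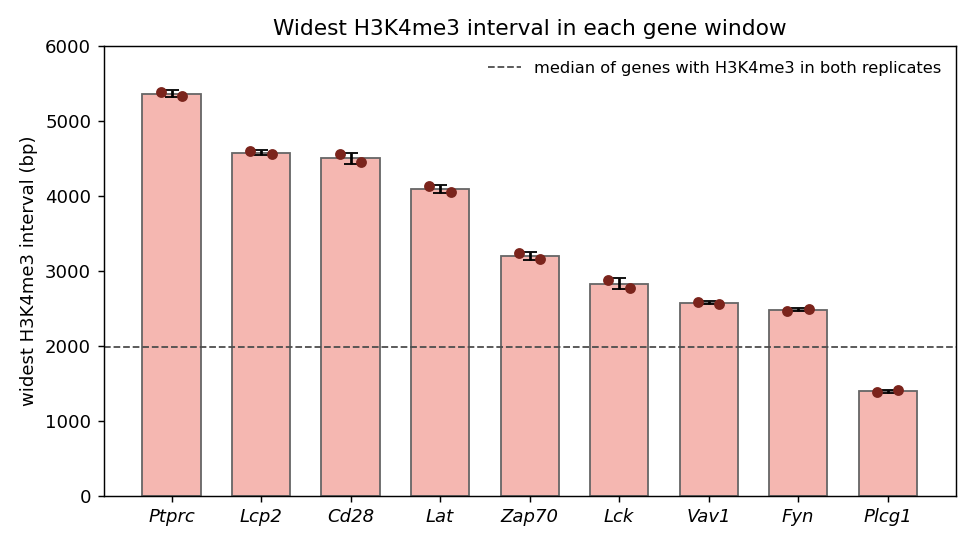
Width of the widest H3K4me3 interval in each gene window (bars, mean; error bars, SD, n = 2; points, replicates), with the median of 12482 genes called for H3K4me3, 1990 bp, as a dashed line. Ptprc is the widest at 5359 bp and Plcg1, at 1394 bp, is the only one under the line.

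Most accessible sites of the 9 windows touched H3K4me3 and H3K27ac intervals. The 9 windows held 27 ATAC-seq sites in either replicate, and 21 were shared by both. Of the 21, 6 held a listed start, 9 lay inside a gene span, and 3 lay within 1 kb of a neighbouring gene. H3K4me3 of both replicates touched 19 of them, H3K27ac 19 and H3K9ac 18, while H3K36me2 of both replicates touched 3 and H3K27me3 none. The sites without H3K27ac were those of Ptprc at 20.4 kb and of Vav1 at 7.65 kb. The same windows held 46 H3K27ac sites shared by both replicates. The whole lists held more H3K27ac intervals too, 27710 and 28279 against 17519 and 19255 for ATAC-seq. Of the 46 sites, 14 had neither H3K4me3 nor H3K9ac, in Lcp2 (5), Cd28 (4), Lck (3), Lat (1) and Vav1 (1). H3K36me2 of at least 1 replicate touched 33 of the 46. Shares over all ATAC-seq and H3K27ac sites were not computed, so these counts describe the 9 windows only.

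On the level of single starts, 12 promoter windows of 8 genes were listed, each from 250 bases before to 50 after the start. H3K27ac of both replicates touched 11 of them, H3K4me3 9, H3K9ac 9, ATAC-seq 6 and H3K36me2 4. Over all 21045 listed promoter windows, the shares were 42.9% for H3K27ac, 43.7% for H3K4me3, 42.8% for H3K9ac, 37.1% for ATAC-seq and 8.16% for H3K36me2. The 4 windows with H3K36me2 were both of Lck, that of Lat and the third of Zap70. In the 250 bases before the start, CAGGAAG matched 5 of the 12 promoters and 10.3% of all, although both Ptprc promoters share 1 match. CAGGTG matched 5 and 17.0%, GGGCGG 4 and 43.1%, TGTGGT 2 and 12.2%, CAGCTG 1 and 12.2%, TATAAA 1 and 11.7%, and CCGGAAG 0 and 9.08%. Overlaps between motifs were not removed.

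H3K27me3 lay outside all 9 windows but at very different distances. The nearest interval was 17.2 kb from the Zap70 span in both replicates, 27.1 kb from that of Lcp2 in both, and 26.0 and 23.4 kb from that of Vav1. At Lat it was 61.2 and 110 kb away, at Lck 119 and 368 kb, at Fyn 201 and 252 kb, and at Cd28 216 kb in both. At Ptprc the distances were 769 and 669 kb, and those of Plcg1, given above, were the longest.

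Most other genes of the pathway carried active marks. Of 35 further genes, 33 were called for H3K4me3, 34 for H3K9ac, 34 for H3K27ac, 32 for ATAC-seq, 32 for H3K36me2 and 5 for H3K27me3. In the same order, the shares over all genes were 57.7%, 56.3%, 57.6%, 53.7%, 53.8% and 24.3%. The whole pattern, which 8 of the 9 genes and 36.2% of all genes had, was found at 22 of the 35. H3K36me2 covered a median of 52.5% of their windows. Among the genes with the highest cover were Ptprcap, whose product binds CD45 (94.6% and 100%), and Cd5, an inhibitory receptor (98.0% and 73.5%). Sos1, an exchange factor for Ras, Was, a regulator of actin, and Dok2, an inhibitory adaptor, had no H3K36me2 interval in either replicate, as Plcg1, but had H3K4me3 in both. The genes without H3K4me3 were Txk, a kinase of the Tec family, with H3K36me2 over 8.31% and 7.27% of its window as its only mark, and Cd6, a receptor related to Cd5, with H3K36me2 over 81.2% and 87.5% as well as H3K9ac and H3K27ac. Was lies on chromosome X, where the H3K36me2 lists held 331 and 350 intervals. The genes called for H3K27me3, named after their values were seen, were Prkcq, Bcl10, Wipf1, Fyb and Dgka. The cover by H3K27me3 reached 22.6% and 30.2% at Prkcq. When the gene span was used without flanks, 2 genes in place of 5 were called, and the share of all genes without flanks is not given here.

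Paralogs of the 9 genes, several of which act in B cells or myeloid cells, had mixed marks. Of 17 paralogs, 8 were called for H3K4me3, 7 each for H3K9ac, H3K27ac and ATAC-seq, 8 for H3K36me2 and 10 for H3K27me3. Over all genes, H3K4me3 was called at 57.7%, H3K36me2 at 53.8% and H3K27me3 at 24.3%. The shares for H3K9ac, H3K27ac and ATAC-seq were 56.3%, 57.6% and 53.7%. H3K27me3 without any of H3K4me3, H3K9ac and H3K27ac in both replicates was found at 6 of them, Src, Yes1, Blk, Syk, Blnk and Clnk. The share of all genes with this H3K27me3 pattern was not computed. H3K4me3 and H3K36me2 with no H3K27me3 were found at 4, Fgr, Ptpra, Plcg2 and Vav3. These 4 had the whole pattern, which was found at 36.2% of all genes.

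Among Src family kinases, Lck and Fyn had no H3K27me3, while the mark covered 64.1% and 59.2% of the Yes1 window, 32.0% and 42.3% of that of Blk, and 4.41% and 15.6% of that of Src. Lyn had H3K27me3 only in replicate 1, over 3.59%, and no other interval. Fgr had the active marks, and its H3K36me2 cover of 62.6% and 45.0% lay below the range of Lck.

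Syk, the relative of Zap70 used by the B cell receptor, had H3K27me3 over 41.1% and 72.2% of its window, and no histone mark of the active set. The adaptors Blnk and Clnk, related to Lcp2, had H3K27me3 over 23.5% and 45.3% and over 41.9% and 50.0%. Lat2, related to Lat, had neither active marks nor H3K27me3, but H3K36me2 covered 94.5% and 96.5% of its window, above the range of Lat itself.

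Beside Cd28 on chromosome 1 lie its relatives Ctla4 (chr1:60909025-60915832), an inhibitory receptor, and Icos (chr1:60960773-61000322), a costimulatory one. Ctla4 had H3K36me2 over 14.9% and 43.9% of its window and no interval of any other assay. Icos had H3K27me3 over 35.8% in both replicates and a single H3K4me3 interval in each, with a mean width of 614.5 bp. The ranges of H3K36me2 at both lay below that of Cd28.

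In the other families, some paralogs had more H3K36me2 than the signalling gene. Plcg2, the relative of Plcg1 used in B cells, had H3K36me2 over 74.8% and 71.1% of its window, where Plcg1 had none, and a widest H3K4me3 interval of 5664 bp on average. Of the receptor phosphatases, Ptpra had H3K36me2 over 68.2% and 58.4% and Ptpre over 29.9% and 25.5%, both above the range of Ptprc, and Ptpre also had H3K27me3 over 22.3% and 27.9%. Vav3 had H3K36me2 over 59.8% and 57.2% and Vav2 over 11.3% and 5.71%, both below the range of Vav1, and Vav2 had H3K27me3 over 3.13% and 3.07%.

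**Figure D5:**
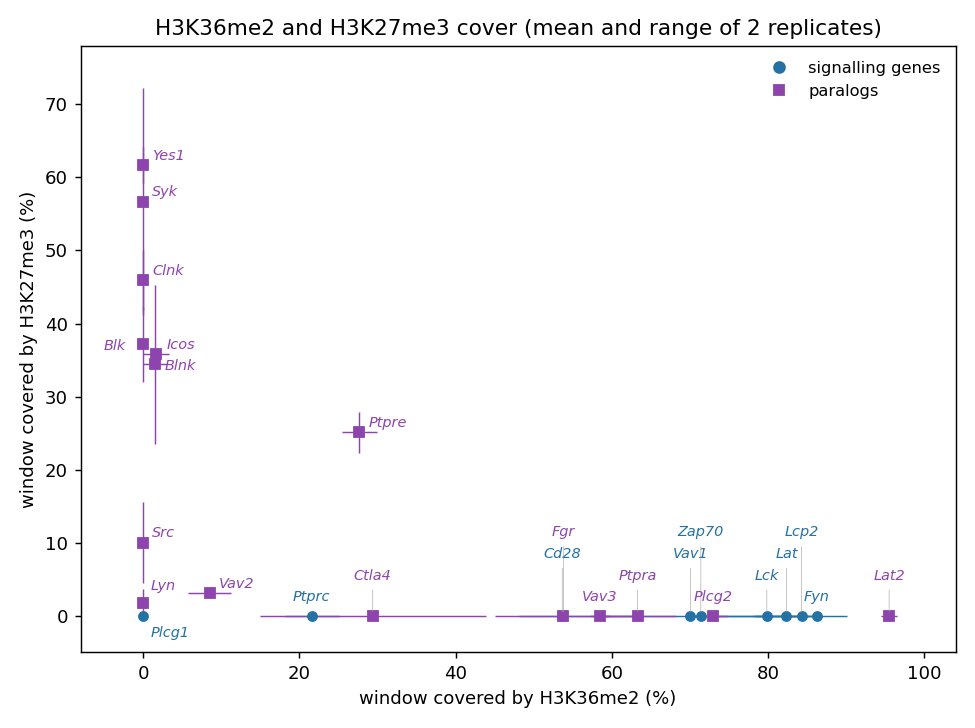
Percent of the window covered by H3K36me2 (x axis) and by H3K27me3 (y axis) for the 9 signalling genes (circles) and 16 of the paralogs (squares), as the mean of 2 replicates with lines over their range. All 9 signalling genes lie at 0 on the y axis, and Yes1 and Syk, the highest of the paralogs drawn, lie at 0 on the x axis.

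The gene nearest to each of the 9 was looked up by the distance between their 12 values of window cover, 1 for each list. All protein-coding genes with no shared window were searched. The values were not scaled, so assays with a wide range of cover, such as H3K36me2, can weigh more than ATAC-seq. The distances, in percentage points, ran from 0.531 between Plcg1 and Tab3 to 11.1 between Lat and Supt4a. The other pairs were Fyn with Hdac4 (1.35), Ptprc with Ranbp2 (2.45), Vav1 with Dbnl (2.90), Lcp2 with Avpi1 (4.98), Lck with Ppia (5.86), Cd28 with Fes (6.57) and Zap70 with Arhgdib (7.88).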

How the data were processed

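Chromatin of EL4 cells was profiled by ChIP-seq for 5 histone marks and by ATAC-seq, with 2 replicates each. According to the study's methods, the authors aligned reads with STAR 2.5, treated duplicates with Picard, called narrow marks and ATAC-seq with macs2 and broad marks with Epic, and used the input as control for ChIP-seq only. The methods say that reads on sex chromosomes were discarded, although the lists hold chromosome X. The deposited lists give, per replicate, the chromosome, start and end of each interval in base pairs, with no score, signal or read count, so the depth is unknown and no normalization applies. The submitters' processing notes name the build GRCm38. Broad intervals lie on bins of 200 bp.

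Gene spans and promoter sequences were taken from RefSeq tables of GRCm38.p6, and the 9 genes, 35 pathway genes and 17 paralogs all matched by symbol. Exons and introns were not told apart, since the table gives spans only. The promoter table held 8 of the 9 genes. A gene was called for an assay when its span plus 10 kb on each side shared at least 1 bp with an interval in both replicates. Cover is the percent of that window in intervals. Called genes were counted among 21631 protein-coding genes on chromosomes 1 to 19 and X. The genes and lists were chosen with earlier results of these data known. Genes named were the 9, the paralogs, the 3 highest and 3 lowest of the pathway list by H3K36me2 cover, those of it without H3K4me3, protein-coding neighbours in the windows, and the nearest gene by Euclidean distance over the 12 cover values. Values of some genes that this rule names are not reported here, although list counts include them. Interval counts and base pairs were checked on simulated intervals and against bedtools 2.31.1 in 259572 windows, of which 0 differed. Python 3.11.15, numpy 2.4.6, pandas 2.3.3 and matplotlib 3.10.9 were used.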

Additional observations from a re-analysis of the deposited data

How the results depend on the processing

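No paired analysis was possible because the lists give called positions and no test was run. Of 217 alternative values, 191 stayed within 1.5 times the count, or within the spread between replicates. The 9 genes called for H3K4me3, H3K9ac and H3K27ac, the 8 for H3K36me2 and the 0 for H3K27me3 stayed within that limit in every alternative. The limit is wide: within 10 kb of the start, only 6 of the 8 genes with a listed start were called for H3K36me2, and 7 for ATAC-seq. With ATAC-seq intervals of at least 500 bp, 5 of the 9 genes, 15 of 35 pathway genes and 3 of 17 paralogs were called. In windows of 10 kb on either side of the start, which only 24 pathway genes and 12 paralogs have in the table, 19 pathway genes were called for H3K4me3, 19 for H3K9ac, 20 for H3K27ac, 18 for ATAC-seq, 17 for H3K36me2 and 2 for H3K27me3. The paralogs called in them were 4 for each of H3K4me3, H3K9ac, H3K27ac and ATAC-seq, 5 for H3K36me2 and 6 for H3K27me3. Pathway genes called for H3K27me3 were 2 without flanks, 3 with flanks of 5 kb and 3 by interval midpoint. For the start windows, the other flanks and the midpoint rule, shares of all genes are not given here. These counts therefore describe the named genes only and were not compared with all genes. The median H3K36me2 cover of the 9 genes, 71.4%, was 84.4% of the gene span, 80.0% with flanks of 5 kb, 51.9% around the starts of 8 genes, 65.9% for base pairs in both replicates, 86.6% for those in either, and 67.3% without intervals at neighbouring genes. At Ptprc it was 3.16% in both and 40.0% in either, against 21.6%. The median widest H3K4me3 interval was 3579 bp when intervals within 1000 bp were merged. ATAC-seq intervals numbered 24.0 as the mean of the replicates and 14.0 around the starts. Shares of all genes called moved too, from 53.7% to 32.7% for ATAC-seq intervals of at least 500 bp.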
